A study of Homo sapiens with 12 samples.

Results

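The genes described here are 10 that act on or beside mTORC1, the kinase complex that promotes growth: the sestrin genes SESN1, SESN2 and SESN3, DDIT4 (which encodes REDD1), TSC1, TSC2, DEPTOR, AKT1S1 and CASTOR1, whose products restrain mTORC1, and RHEB, whose product activates it. They were taken by symbol from the 61510 genes of the deposited tables, and 9 of the 10 passed the filter on low counts that left 15653 genes for testing. The cells were A549/DDP, a subline of human A549 lung adenocarcinoma cells selected for resistance to cisplatin (DDP), and the medium of all groups held 1 µg/ml of that drug. Of the 4 groups, 2 carried a control hairpin (shNC) and 2 a hairpin against NRF2 (shNRF2), the antioxidant transcription factor encoded by NFE2L2. From 70% confluence each line was treated for 24 h with the solvent DMSO or with gambogenic acid (GNA) at 4 µM, a xanthone found in gamboge, and 3 bulk libraries per group were sequenced, 12 in all. The labels do not give the number of hairpins or clones behind each line, and parental A549 cells are known to carry inactivating mutations in KEAP1, the inhibitor of NRF2, and STK11, an upstream kinase of AMPK. The series title asks about NRF2, HSF1 and HO-1 in the action of GNA.

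mTORC1 is switched on at the lysosome by Rag GTPases, which carry the amino acid signal, and by RHEB bound to GTP. The TSC1-TSC2 complex turns RHEB off, and REDD1 acts in stress by way of that complex. Sestrins and CASTOR1 bind GATOR2 and so hold back the Rag branch, SESN2 as a leucine sensor and CASTOR1 as an arginine sensor, while DEPTOR and PRAS40 (the product of AKT1S1) bind mTORC1 itself. SESN2 and DDIT4 are known as genes induced by amino acid shortage, endoplasmic reticulum stress, hypoxia and oxidants, and SESN1 as a p53 target and SESN3 as a FOXO target.

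Library totals ran from 12848607 to 17192671 counts. NFE2L2 stood at 77.9 ± 3.60 CPM (SD, n = 3) with DMSO and 87.4 ± 3.85 with GNA in shNC, and 50.2 ± 2.80 with DMSO and 45.8 ± 2.00 with GNA in shNRF2, so the hairpin line kept part of the transcript. Of 5 epithelial markers, KRT8 and KRT18 were abundant and KRT19 was near 0 in all groups, and the sum of the 5 ran from 15289 to 16546 CPM in the DMSO libraries and from 9458 to 10024 CPM in the GNA libraries. Of 5 alveolar type 2 markers, ABCA3 was present and SFTPB, SFTPC, NAPSA and NKX2-1 were near 0. The summed leukocyte and endothelial markers each stayed at or under 0.675 CPM, and the 5 fibroblast markers summed to 7.13 to 9.96 CPM. The part of the lower keratin sum under GNA in the results was not tested. Library shNC DMSO 1 stood further from the other libraries of its group than those did from each other (chi-square per degree of freedom 7.27 and 5.77 against 3.50). Other groups were uneven too, at lower values. Library shNC GNA 1 had 3.86 and 4.87 against 2.67, shNRF2 DMSO 3 had 4.88 and 3.36 against 2.72, and the largest in shNRF2 GNA was 2.81. Nothing in the labels ties the 3 libraries of a group to separate cultures, and p-values therefore reflect spread between libraries that may be technical. In bulk RNA, more transcript per cell and more cells with the transcript cannot be told apart.

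CPM, the unit of level used here, is a count scaled to the TMM-adjusted total of its library. A change is a log2 fold change ± SE fitted with edgeR (quasi-likelihood), and it was called where the Benjamini-Hochberg adjusted p over all 15653 genes was under 0.05. With GNA, 5 of the 9 tested genes rose and 0 fell in shNC cells, where 30.7% of all tested genes were called (14.6% higher and 16.1% lower). In shNRF2 cells 6 rose and 0 fell, against 33.7% of all genes called (16.7% higher and 17% lower). The activator RHEB was among those 6. Groups that did not overlap, with every GNA library above every DMSO library, were found for 5 genes in shNC and 5 in shNRF2, and the reverse for 1 in each, DEPTOR. Over all tested genes the groups did not overlap for 40.7% in shNC (20.5% higher and 20.2% lower) and 44.9% in shNRF2 (22.8% higher and 22.1% lower). The median log2 fold change of the 9 genes was 0.34 in shNC and 0.32 in shNRF2, beside 0.017 and 0.0098 over all tested genes. With 9 genes these medians are the values of AKT1S1 in shNC and of RHEB in shNRF2. At an unadjusted p under 0.05 the number that fell was 0 in shNC and 1 in shNRF2, DEPTOR. DESeq2 called 4 higher in shNC and 5 in shNRF2, and 0 lower in either line, and limma called 1 lower in shNRF2. With scaling to library totals in place of TMM, the median of all genes moved to 0.12 in shNC, and calls over all genes were 3543 higher and 1542 lower in place of 2284 and 2526. In shNRF2 the same change of scaling gave 3356 higher and 2091 lower in place of 2617 and 2657.

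**Figure D1:**
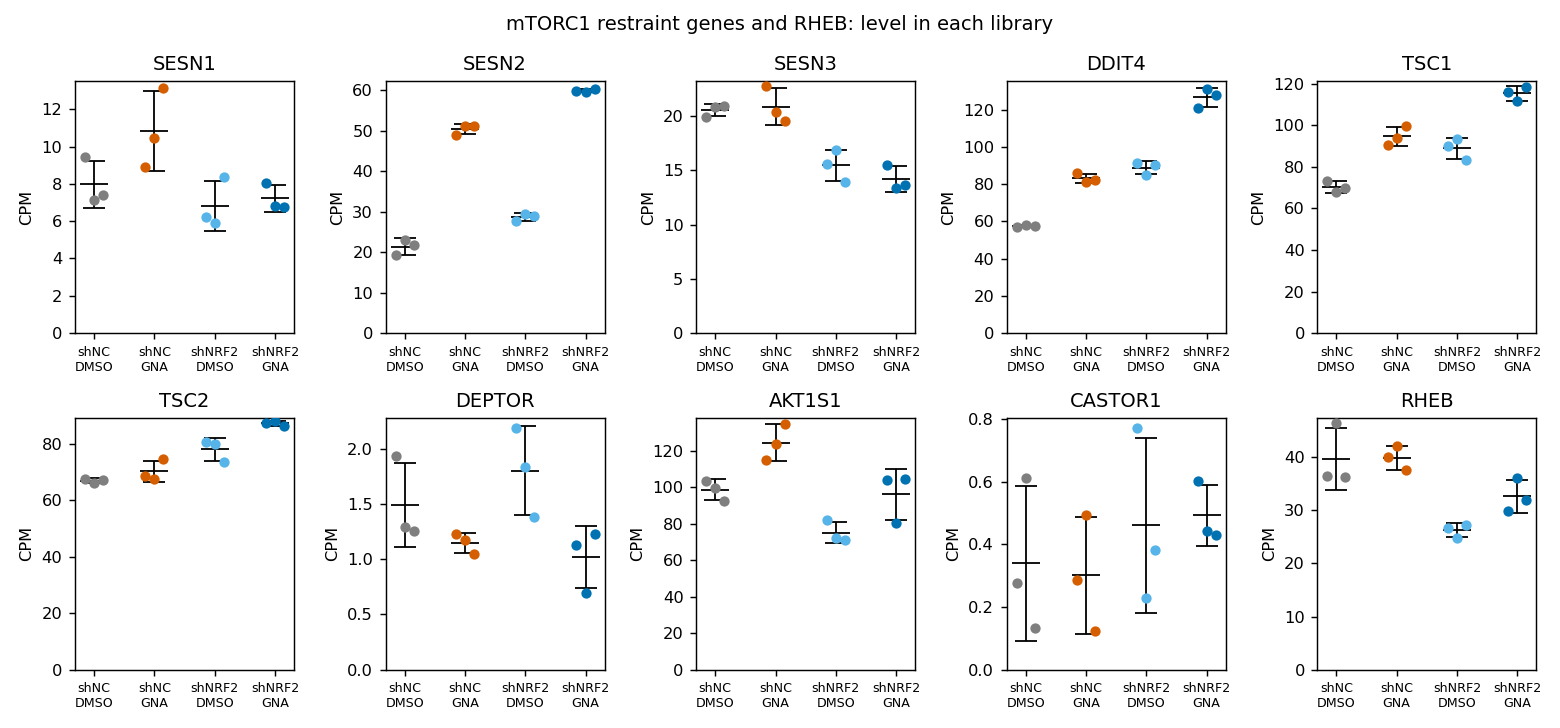
CPM of each of the 10 genes in each of the 12 libraries (points), with the group mean and SD as black bars, on linear axes from 0. SESN2 ran from 19.2 to 23.1 CPM in shNC DMSO and from 59.5 to 60.3 in shNRF2 GNA, while the CASTOR1 and DEPTOR libraries of the 4 groups overlap or nearly do.

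SESN2, a plus-strand gene at chr1:28259527-28282491 (GRCh38), had the highest rise of the 9 tested genes with GNA in both lines. Its level was 19.2, 23.1 and 21.8 CPM in shNC DMSO and 48.9, 51.3 and 51.3 in shNC GNA. In the hairpin line it was 27.6, 29.4 and 28.98 CPM in DMSO and 59.9, 59.5 and 60.3 in GNA. All 4 groups were apart, in the order shNC DMSO, shNRF2 DMSO, shNC GNA, shNRF2 GNA. GNA raised SESN2 by 1.24 ± 0.073 in shNC (adjusted p = 7.3e-13, edgeR), to 236% of the DMSO level, and by 1.06 ± 0.071 in shNRF2 (adjusted p = 2.9e-12, edgeR), to 209%. The hairpin line was higher by 0.42 ± 0.077 in DMSO (adjusted p = 1.1e-04, edgeR) and by 0.25 ± 0.067 in GNA (adjusted p = 0.0071, edgeR). The responses of the lines differed by -0.17 ± 0.10, with a 95% interval of -0.38 to 0.039 (adjusted p = 0.37, edgeR).

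DDIT4, at chr10:72273920-72276036 on the plus strand, was the other stress-induced gene of the set that rose in both lines. Its level was 56.8, 58.0 and 57.4 CPM with DMSO and 85.9, 81.1 and 82.4 with GNA in shNC, and 91.5, 84.7 and 90.2 with DMSO and 121, 131 and 128 with GNA in shNRF2. The untreated hairpin line overlapped the treated control line, and the treated hairpin line stood above all others. GNA raised DDIT4 by 0.53 ± 0.057 in shNC (adjusted p = 4.1e-08, edgeR) and by 0.51 ± 0.055 in shNRF2 (adjusted p = 2.5e-08, edgeR), to 145% and 143% of the DMSO level. The hairpin line was higher by 0.63 ± 0.057 in DMSO (adjusted p = 1.9e-09, edgeR) and by 0.61 ± 0.055 in GNA (adjusted p = 2.0e-09, edgeR). The difference of the GNA responses was -0.022 ± 0.079, with a 95% interval of -0.18 to 0.14. Of its exon bases, 847 are shared with the antisense gene DDIT4-AS1 in GENCODE 29, and whether the counting used strand is not given in the sources used here, so reads of the pair may not be told apart.

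Promoter sequence was available from RefSeq (GRCh38.p14) for 8 of the 10 genes, in 11 windows of 250 bases before an annotated start. The stretches before the starts of SESN2 and DDIT4 are shown because these stress-induced genes were higher with GNA and in the hairpin line in all 4 pairwise comparisons, as was TSC1, whose window held no motif searched. A short TSC2 stretch is shown because it holds the one match to the C/EBP-ATF element among the windows. Capitals mark the CCAAT box, read on either strand, in SESN2 and DDIT4, and the C/EBP-ATF element in TSC2.
SESN2: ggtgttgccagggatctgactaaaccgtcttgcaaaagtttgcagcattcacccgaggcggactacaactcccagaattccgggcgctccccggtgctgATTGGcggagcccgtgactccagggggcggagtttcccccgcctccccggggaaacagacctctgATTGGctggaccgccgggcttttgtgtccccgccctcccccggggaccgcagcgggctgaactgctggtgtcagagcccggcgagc
DDIT4: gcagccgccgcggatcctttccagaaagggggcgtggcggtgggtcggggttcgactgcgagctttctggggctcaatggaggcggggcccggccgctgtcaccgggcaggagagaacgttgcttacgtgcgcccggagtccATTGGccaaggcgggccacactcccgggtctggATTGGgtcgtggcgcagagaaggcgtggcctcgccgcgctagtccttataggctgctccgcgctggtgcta
TSC2: ccgtcacgTGATGCAAggatcgccggc
The SESN2 sequence is chr1:28259268-28259517, the DDIT4 sequence chr10:72273674-72273919 and the TSC2 sequence chr16:2047867-2047893, all on the plus strand. In both SESN2 and DDIT4 the letters ATTGG, the reverse complement of CCAAT, occur 2 times. They lie 151 and 86 bases before the RefSeq start of SESN2 and 108 and 75 before that of DDIT4. Distances here run to RefSeq starts, which directly follow chr1:28259517 and chr10:72273923, and not to the gene starts given above. The DDIT4 stretch shown ends short of its window, at 72273919. Over all 35116 windows of 250 bases, 32.0% hold CCAAT, and of the genes here SESN1, RHEB and CASTOR1 have it too. ACGTG, the core of the hypoxia response element, lies 125 bases before the DDIT4 start and, on the other strand, 81 before that of RHEB, and occurs in 18.5% of windows. The TSC2 stretch has TGATGCAA 110 bases before a RefSeq start, overlapped by CACGTG, an E-box that itself contains ACGTG, at 114, and it lies inside an exon of a longer TSC2 transcript in GENCODE 29. TGATGNAA occurs in 3.14% of windows, CACGTG in 6.34%, the antioxidant response core TGACNNNGC in 10.9% and the heat shock unit GAANNTTC in 5.78%. TGACNNNGC was found before 1 start each of SESN1 and TSC2, and GAANNTTC in none of the 11 windows. These are matches of letters within these windows and say nothing of binding.

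SESN3, at chr11:95165513-95232541 on the minus strand, did not follow SESN2. Its level was 19.9, 20.8 and 20.9 CPM with DMSO and 22.7, 20.4 and 19.5 with GNA in shNC, and 15.6, 16.8 and 13.95 with DMSO and 15.5, 13.4 and 13.7 with GNA in shNRF2. The GNA and DMSO libraries overlapped within each line, and every shNRF2 library was below every shNC library. The change with GNA was 0.020 ± 0.095 in shNC and -0.13 ± 0.10 in shNRF2, with 95% intervals of -0.18 to 0.22 and -0.34 to 0.084. SESN3 was lower in the hairpin line, with a log2 difference of -0.41 ± 0.099 in DMSO (adjusted p = 0.0019, edgeR) and of -0.56 ± 0.099 in GNA (adjusted p = 1.0e-04, edgeR). With limma on log2(FPKM + 1) these differences were smaller in size, -0.22 and -0.34, and still called.

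SESN1, at chr6:108986437-109094819 on the minus strand, was the least abundant sestrin. It stood at 9.44, 7.12 and 7.39 CPM with DMSO and 8.92, 10.5 and 13.1 with GNA in shNC, and 6.23, 5.90 and 8.36 with DMSO and 8.07, 6.84 and 6.77 with GNA in shNRF2. Only the pair shNC GNA and shNRF2 GNA did not overlap among the 4 pairs compared. With GNA it rose by 0.45 ± 0.16 in shNC (adjusted p = 0.034, edgeR), a call that was lost with DESeq2 (adjusted p = 0.069), limma on log2(FPKM + 0.1) (0.051) and without shNC DMSO replicate 2 (0.14) or 3 (0.12) or shNC GNA replicate 2 (0.057) or 3 (0.25). Without shNC GNA replicate 3 the change was 0.29, and with limma on log2(FPKM + 1), where the pseudocount shrinks changes of low genes, it was 0.30. In shNRF2 the change was 0.081 ± 0.17, and the difference of the responses was -0.37 ± 0.24 (adjusted p = 0.42, edgeR). In GNA it was lower in the hairpin line, with a log2 difference of -0.60 ± 0.16 (adjusted p = 0.0070, edgeR), a call lost without shNC GNA replicate 3 (-0.43, adjusted p = 0.078) and with limma on log2(FPKM + 0.1) (adjusted p = 0.052). With limma on log2(FPKM + 1) that difference was -0.31. In DMSO the hairpin difference was -0.23 ± 0.17 (adjusted p = 0.33, edgeR).

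The make-up of the sestrin family was compared next. The FPKM scale divides counts by a fixed length for each gene, which need not be that of the transcripts present. On that scale the 3 genes summed to 8.78 ± 0.373 with DMSO and 18.4 ± 0.516 with GNA in shNC. In shNRF2 the sum was 10.6 ± 0.339 with DMSO and 20.3 ± 0.314 with GNA (SD, n = 3). SESN2 made up 66.9 ± 3.01% of that sum with DMSO and 80.8 ± 0.635% with GNA in shNC, and 77.5 ± 0.377% with DMSO and 88.1 ± 0.933% with GNA in shNRF2. The share of SESN3 was 21.1%, 11.0%, 13.7% and 6.83% in the same order, and that of SESN1 12.0%, 8.24%, 8.78% and 5.05%. These shares depend on the lengths used. By raw counts SESN2 made up 42.8%, 61.4%, 56.2% and 73.7% in that order, and SESN3 41.1%, 25.4%, 30.4% and 17.4%. The SESN2 share of every GNA library was above that of every DMSO library in the same line, and every shNRF2 library was above every shNC library of the same treatment. Each of these 4 differences had a two-sided exact permutation p = 0.1, the smallest that this test can give with 3 libraries against 3, so the test cannot pass 0.05 here. SESN1 and SESN3 share 363 and 93 exon bases with the annotated genes AL390208.1 and AP000787.1.

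**Figure D2:**
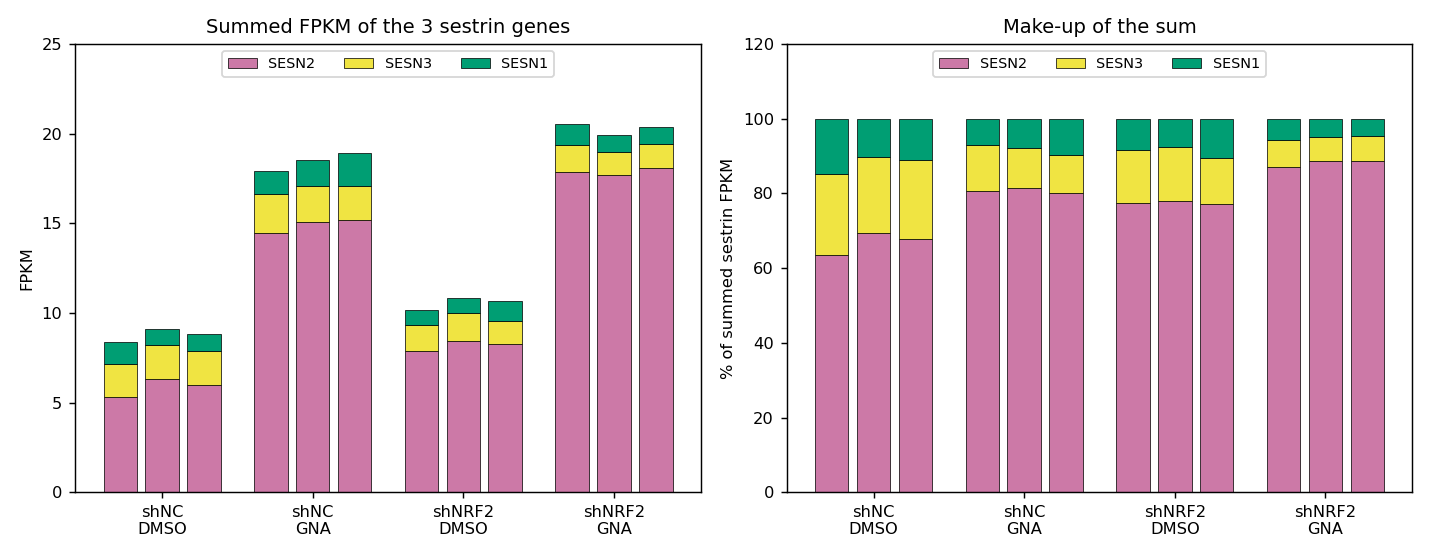
Summed FPKM of SESN1, SESN2 and SESN3 in each library (left, bars from 0) and the percentage of that sum from each gene (right). The sum is 8.38 to 10.8 FPKM in the DMSO libraries and 17.9 to 20.5 in the GNA libraries, and the SESN2 share is lowest in shNC DMSO (63.6% to 69.4%).

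TSC1 rose with GNA in both lines, and TSC2, its partner, was called higher with GNA in shNRF2 only, a difference between the lines that did not pass its own test (0.089 ± 0.083, adjusted p = 0.62, edgeR). TSC1, at chr9:132891348-132946874 on the minus strand, stood at 73.3, 68.0 and 69.6 CPM with DMSO and 90.7, 93.7 and 99.9 with GNA in shNC, and 90.2, 93.4 and 83.3 with DMSO and 116, 112 and 118 with GNA in shNRF2. As for DDIT4, untreated hairpin and treated control libraries overlapped and the treated hairpin libraries were above all others. GNA raised TSC1 by 0.43 ± 0.059 in shNC (adjusted p = 2.3e-06, edgeR) and by 0.37 ± 0.058 in shNRF2 (adjusted p = 1.0e-05, edgeR), and the hairpin line was higher by 0.34 ± 0.060 in DMSO and 0.28 ± 0.058 in GNA (adjusted p = 5.7e-05 and 4.9e-04, edgeR). The responses differed by -0.057 ± 0.083 (95% interval -0.23 to 0.11). TSC1 shares 349 exon bases with GFI1B on the other strand, which stood at or under 0.246 CPM in every library.

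TSC2, at chr16:2047465-2089487 on the plus strand, encodes the subunit with the GTPase-activating domain. It stood at 67.5, 66.1 and 67.3 CPM with DMSO and 68.6, 67.6 and 74.6 with GNA in shNC, and 80.8, 79.8 and 73.5 with DMSO and 87.2, 88.1 and 86.2 with GNA in shNRF2. The control groups lay close together and both hairpin groups were above the DMSO control. TSC2 was higher in the hairpin line by 0.22 ± 0.059 in DMSO (adjusted p = 0.0043, edgeR) and by 0.31 ± 0.058 in GNA (adjusted p = 1.9e-04, edgeR). With GNA the change was 0.070 ± 0.059 in shNC (adjusted p = 0.40, edgeR, and 0.17 with adjusted p = 0.025 when scaled to library totals). In shNRF2 it rose by 0.16 ± 0.058 (adjusted p = 0.035, edgeR), a call lost without the filter (adjusted p = 0.10), with DESeq2 (0.066) and without shNRF2 DMSO replicate 2 (0.058) or 3 (0.16) or shNRF2 GNA replicate 1 (0.079), 2 (0.094) or 3 (0.064). TSC2 shares 402 exon bases with NTHL1 and 778 with PKD1, both on the other strand. NTHL1 fell with GNA, from 32.5 ± 0.689 to 24.8 ± 0.923 CPM in shNC and from 26.5 ± 0.758 to 19.2 ± 1.16 in shNRF2. PKD1 stood at 12.5 ± 1.01, 23.8 ± 1.42, 19.2 ± 0.787 and 25.3 ± 3.23 CPM in shNC with DMSO and GNA and in shNRF2 with DMSO and GNA, and the part of either neighbour in the TSC2 counts was not tested. TBC1D7, the third subunit of the TSC complex, was lower in the hairpin line in DMSO, with a log2 difference of -0.70 ± 0.20 (adjusted p = 0.0092, edgeR), a call lost without shNC DMSO replicate 2 or shNRF2 DMSO replicate 1 (largest adjusted p 0.060).

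AKT1S1, at chr19:49869033-49878459 on the minus strand, rose with GNA and was lower in the hairpin line. PRAS40, its product, is an AKT substrate that binds RAPTOR. Its level was 104, 99.9 and 92.3 CPM with DMSO and 115, 124 and 135 with GNA in shNC, and 82.0, 72.4 and 71.4 with DMSO and 104, 80.3 and 105 with GNA in shNRF2. One of the treated hairpin libraries, at 80.3, fell among the untreated ones. GNA raised AKT1S1 by 0.34 ± 0.080 in shNC (adjusted p = 0.0019, edgeR) and 0.35 ± 0.083 in shNRF2 (adjusted p = 0.0014, edgeR), and the hairpin line was lower, with a log2 difference of -0.39 ± 0.082 in DMSO and -0.37 ± 0.080 in GNA (adjusted p = 5.2e-04 and 8.3e-04, edgeR). The difference of the responses was 0.016 ± 0.11 (95% interval -0.22 to 0.25). AKT1S1 shares 392 exon bases with TBC1D17, at 5.96 to 8.09 CPM as group means, which was not called in any of the 4 pairwise comparisons.

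DEPTOR and CASTOR1 were near the lower limit of these libraries. DEPTOR had 11 to 34 counts per library and stood at 1.93, 1.29 and 1.25 CPM with DMSO and 1.22, 1.17 and 1.04 with GNA in shNC, and 2.18, 1.84 and 1.38 with DMSO and 1.13, 0.697 and 1.23 with GNA in shNRF2. In each line the 3 GNA libraries were below the 3 DMSO libraries, as for 20.2% of all tested genes in shNC and 22.1% in shNRF2. The change was -0.37 ± 0.33 in shNC (adjusted p = 0.43, edgeR) and -0.83 ± 0.34 in shNRF2 (adjusted p = 0.059, edgeR), the latter called lower with limma on log2(FPKM + 1) and log2(FPKM + 0.1) (adjusted p = 0.036 and 0.043) and without shNRF2 DMSO replicate 3 (adjusted p = 0.044). The hairpin differences were 0.29 ± 0.32 in DMSO and -0.17 ± 0.35 in GNA, with intervals that reach from -0.37 to 0.94 and from -0.89 to 0.56. CASTOR1, at chr22:30285117-30289627 on the minus strand, had 2 to 12 counts per library and did not pass the filter. Its levels were 0.276, 0.613 and 0.132 CPM with DMSO and 0.288, 0.493 and 0.123 with GNA in shNC, and 0.771, 0.230 and 0.383 with DMSO and 0.603, 0.443 and 0.431 with GNA in shNRF2, so that a difference between groups was not detectable at this depth. Tested without the filter, the smallest adjusted p of CASTOR1 over the 5 comparisons was 0.65 (edgeR). CASTOR1 shares 1262 exon bases with the same-strand gene AC004997.1, so its few reads may be split between the pair.

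RHEB, at chr7:151466012-151520120 on the minus strand, is the one activator of the set. It stood at 36.4, 46.3 and 36.2 CPM with DMSO and 39.9, 42.1 and 37.6 with GNA in shNC, and 26.7, 24.7 and 27.2 with DMSO and 29.9, 36.0 and 31.9 with GNA in shNRF2. Every hairpin library was below every control library of the same treatment. RHEB was lower in the hairpin line, with a log2 difference of -0.60 ± 0.093 in DMSO (adjusted p = 1.1e-05, edgeR), at 66.1% of the control level. In GNA the difference was -0.29 ± 0.090 (adjusted p = 0.018, edgeR), a call lost with limma on log2(FPKM + 1) and log2(FPKM + 0.1) (adjusted p = 0.054 and 0.055) and without shNC GNA replicate 2 (0.091) or shNRF2 GNA replicate 1 (0.11) or 3 (0.070). With GNA, RHEB changed by 0.0064 ± 0.089 in shNC and rose by 0.32 ± 0.094 in shNRF2 (adjusted p = 0.010, edgeR), which was lost without shNRF2 DMSO replicate 2 (adjusted p = 0.058) or shNRF2 GNA replicate 2 (0.086). The responses differed by 0.31 ± 0.13, with a 95% interval of 0.044 to 0.58 and an unadjusted p = 0.024 that did not pass adjustment (adjusted p = 0.17, edgeR).

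Between the lines, 4 of the 9 tested genes were higher and 3 lower in shNRF2 in DMSO, against 35.2% of all genes called (16.8% higher and 18.3% lower), and 4 were higher and 4 lower in GNA, against 26.1% (12.8% higher and 13.3% lower). The groups did not overlap for 4 genes upward and 3 downward in DMSO, against 43.2% of all genes (21.3% and 21.9%), and for 4 and 4 in GNA, against 40.9% (21.2% and 19.7%). SESN2, DDIT4, TSC1 and TSC2 were the higher ones in both treatments. SESN3, AKT1S1 and RHEB were lower in both, and SESN1 in GNA. The median log2 fold change was 0.22 in DMSO and -0.17 in GNA, beside 0.011 and 0.013 over all tested genes. With 9 genes each median is the value of a single gene, which was TSC2 in DMSO. In GNA it was DEPTOR, a gene of low counts that was not called (adjusted p = 0.78, edgeR). With library totals, calls over all genes in DMSO were 3226 higher and 2266 lower in place of 2636 and 2872. For the difference of the GNA responses between the lines, edgeR called 0 of the 9 genes in either direction, as did DESeq2 and limma, against 6.82% of all genes (3.58% higher and 3.24% lower). At an unadjusted p under 0.05 the count was 1, RHEB. Over all genes that comparison gave 561 higher and 507 lower calls, and 414 and 674 with library totals. The 4 pairwise comparisons share groups with one another, so their values are given side by side and not as independent evidence.

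**Figure D3:**
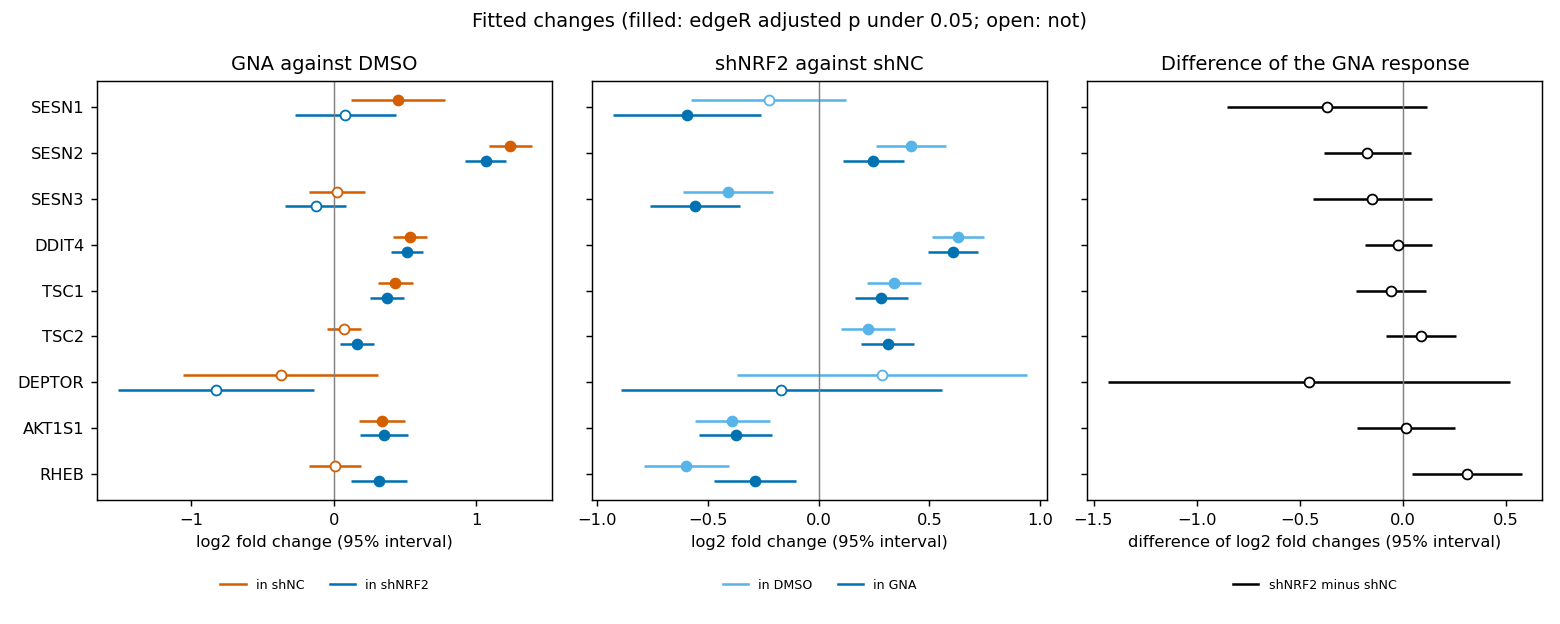
Log2 fold change of the 9 tested genes with 95% intervals: GNA against DMSO in each line (left), shNRF2 against shNC in each treatment (middle) and the difference of the GNA responses (right). Filled points passed an edgeR adjusted p under 0.05. SESN2 is farthest right on the left panel (1.24 and 1.06), SESN3, AKT1S1 and RHEB lie left of 0 in the middle panel, and no point is filled on the right.

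By FPKM, DDIT4 was the highest of the 10 in every group. It stood at 25.8 ± 0.148 FPKM with DMSO and 40.1 ± 1.20 with GNA in shNC. In shNRF2 it was at 41.4 ± 1.55 with DMSO and 61.7 ± 2.39 with GNA. In shNC DMSO it was followed by AKT1S1 (16.4 FPKM), RHEB (10.7), SESN2 (5.88), TSC1 (3.59), TSC2 (3.11), SESN3 (1.85), SESN1 (1.05), DEPTOR (0.541) and CASTOR1 (0.118), and no neighbours in that order overlapped. SESN2 moved to the third place in shNC GNA (14.9 ± 0.402 FPKM) and in shNRF2 DMSO (8.19 ± 0.285). In shNRF2 GNA it was second by mean, at 17.9 ± 0.207 FPKM, but overlapped AKT1S1 at 17.3 ± 2.57. SESN1 and DEPTOR overlapped in shNRF2 DMSO. The order was otherwise the same in the 4 groups. It depends on the fixed length used for each gene, which need not be that of the transcripts present. By CPM, which is not divided by length, the order differed. In shNC DMSO AKT1S1 (98.7 CPM) stood above DDIT4 (57.4), and TSC1 (70.3) above SESN2 (21.4).

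**Figure D4:**
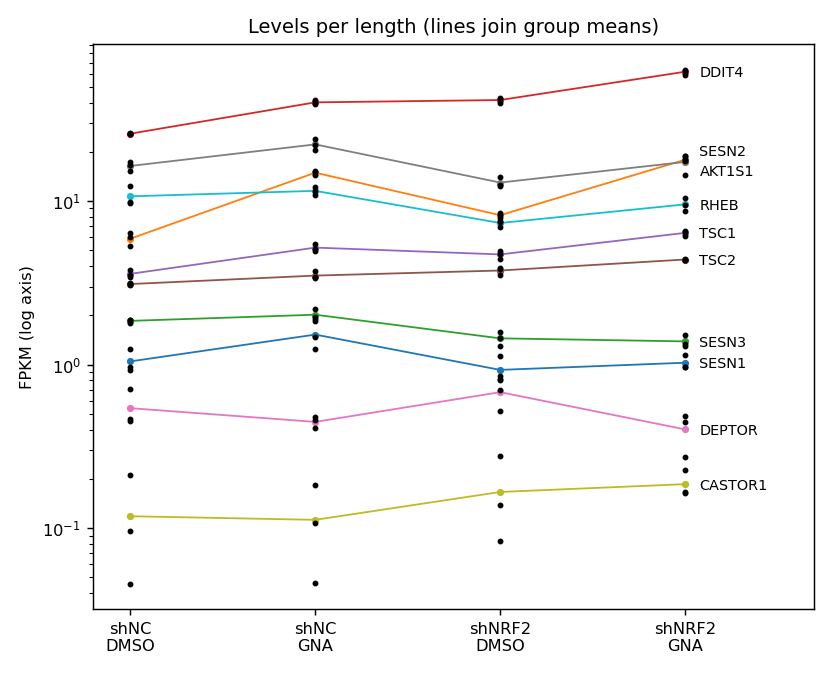
FPKM of the 10 genes in the 4 groups on a log axis, with lines through the group means and black points for the libraries. DDIT4 lies on top in every group (25.8 to 61.7 FPKM as group means) and CASTOR1 at the bottom (0.112 to 0.186), and the SESN2 line crosses that of RHEB.

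Among 9836 other tested genes with a mean of at least 5 CPM and an approved symbol, those whose log2 CPM over the 12 libraries correlated best with SESN2 were GFPT1 (r = 0.990), ALDH1L2 (0.989), AKNA (0.989), AXL (0.989) and GARS1 (0.988). For DDIT4 they were DNAJC10 (0.988), ICA1 (0.987), WSB1 (0.980), USP40 (0.979) and JMY (0.979). For SESN3 they were SLC9A2 (0.955), CCL5 (0.953), TRIM29 (0.952), GSR (0.947) and S1PR3 (0.945). The 12 points are 4 groups of 3 and share their libraries, so r describes the pattern of 4 group means more than 12 separate points. The gene most like SESN2, GFPT1, the entry enzyme of the hexosamine pathway, rose by 0.60 ± 0.049 and 0.64 ± 0.049 with GNA in shNC and shNRF2. DNAJC10, a reductase of the endoplasmic reticulum, rose by 0.47 ± 0.049 and 0.47 ± 0.048, and stood higher in the hairpin line by 0.45 ± 0.049 in DMSO and 0.45 ± 0.048 in GNA. Of the SESN3 set, GSR, which encodes glutathione reductase, was lower in the hairpin line, with a log2 difference of -0.96 ± 0.060 in DMSO and in GNA.

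Around these genes, 82 further pathway genes in 7 lists were all measured. With GNA, 19 of the 82 rose and 13 fell in shNC, and 23 rose and 12 fell in shNRF2, with medians of -0.0066 and 0.012. Between the lines 16 were higher and 18 lower in shNRF2 in DMSO, and 12 higher and 11 lower in GNA. Those shares, 39.0%, 42.7%, 41.5% and 28.0%, stand beside 30.7%, 33.7%, 35.2% and 26.1% of all genes.

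The list of transcription factors known to act on sestrin genes or DDIT4 had 7 of 12 higher and 1 lower with GNA in shNC, where 14.6% of all tested genes were higher and 16.1% lower. In shNRF2 2 were higher and 2 lower, against 16.7% and 17% of all tested genes. DDIT3, which encodes CHOP, went from 12.0 ± 1.44 to 49.7 ± 2.37 CPM in shNC (2.05 ± 0.085, adjusted p = 4.2e-16, edgeR) and from 19.8 ± 1.11 to 89.8 ± 4.72 in shNRF2 (2.18 ± 0.078, adjusted p = 7.1e-18, edgeR). ATF4, the factor upstream of CHOP in amino acid shortage, rose from 334 ± 10.5 to 397 ± 3.07 CPM in shNC (0.25 ± 0.043) and went from 367 ± 4.81 to 394 ± 1.99 in shNRF2 (0.10 ± 0.043, adjusted p = 0.071, edgeR). HIF1A, which encodes the hypoxia factor, fell with GNA by 0.46 in shNC and 0.80 in shNRF2 on the log2 scale, and was higher in the hairpin line by 0.79 ± 0.046 in DMSO and 0.46 ± 0.046 in GNA. FOXO3 rose by 0.56 ± 0.14 in shNC (adjusted p = 0.0032, edgeR), and its change in shNRF2 was 0.19 ± 0.14 (adjusted p = 0.32, edgeR).

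Of 15 mTORC1 substrates and outputs, 4 rose and 4 fell with GNA in shNC (all tested genes 14.6% and 16.1%), and 7 rose and 3 fell in shNRF2 (all tested genes 16.7% and 17%). EIF4EBP1, the translation repressor 4E-BP1, rose from 54.7 ± 5.07 to 105 ± 7.03 CPM in shNC (0.94 ± 0.065, adjusted p = 1.1e-11, edgeR) and from 85.7 ± 0.865 to 122 ± 3.61 in shNRF2 (0.51 ± 0.063, adjusted p = 2.9e-07, edgeR). The cap-binding factor gene EIF4E fell by 0.53 on the log2 scale in shNRF2, and by 0.42 in shNC, the latter not called with limma on FPKM (adjusted p up to 0.097). EIF4B, an initiation factor gene, fell by 0.29 and 0.30 in shNC and shNRF2. ULK1, which starts autophagy, rose by 0.61 ± 0.085 in shNC and 0.46 ± 0.084 in shNRF2, and LPIN1 by 0.55 ± 0.14 and 0.73 ± 0.14 in shNC and shNRF2. EIF4EBP2 was lower in the hairpin line, with a log2 difference of -0.55 ± 0.097 in DMSO and -0.48 ± 0.098 in GNA.

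In the Rag, Ragulator and folliculin list, 4 of 13 rose and 3 fell with GNA in shNC, beside 14.6% and 16.1% of all tested genes. In shNRF2 6 rose and edgeR called 0 lower (2 at an unadjusted p under 0.05), beside 16.7% and 17%. FLCN, which encodes folliculin, rose by 0.65 ± 0.15 and 0.79 ± 0.15 in shNC and shNRF2, and RRAGB by 0.63 ± 0.12 and 0.56 ± 0.11. The 3 that fell in shNC were the Ragulator genes LAMTOR5 (-0.65 ± 0.14), LAMTOR4 (-0.37 ± 0.076) and LAMTOR2 (-0.26 ± 0.077). The LAMTOR2 call was lost in 4 of 21 alternatives. In DMSO, 6 of the 13 were lower in the hairpin line and 1 higher, beside 18.3% lower and 16.8% higher over all tested genes. RRAGD stood at 6.81 ± 0.588 CPM with DMSO and 7.53 ± 0.926 with GNA in shNC, and 2.22 ± 0.628 with DMSO and 4.44 ± 0.750 with GNA in shNRF2, lower in the hairpin line, with a log2 difference of -1.60 ± 0.21 in DMSO (adjusted p = 7.4e-07, edgeR). RRAGC was lower there, with a log2 difference of -0.48 ± 0.095, and LAMTOR5, a Ragulator subunit, with one of -0.60 ± 0.14. In GNA 2 of the 13 were lower in the hairpin line, beside 13.3% of all tested genes.

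**Figure D5:**
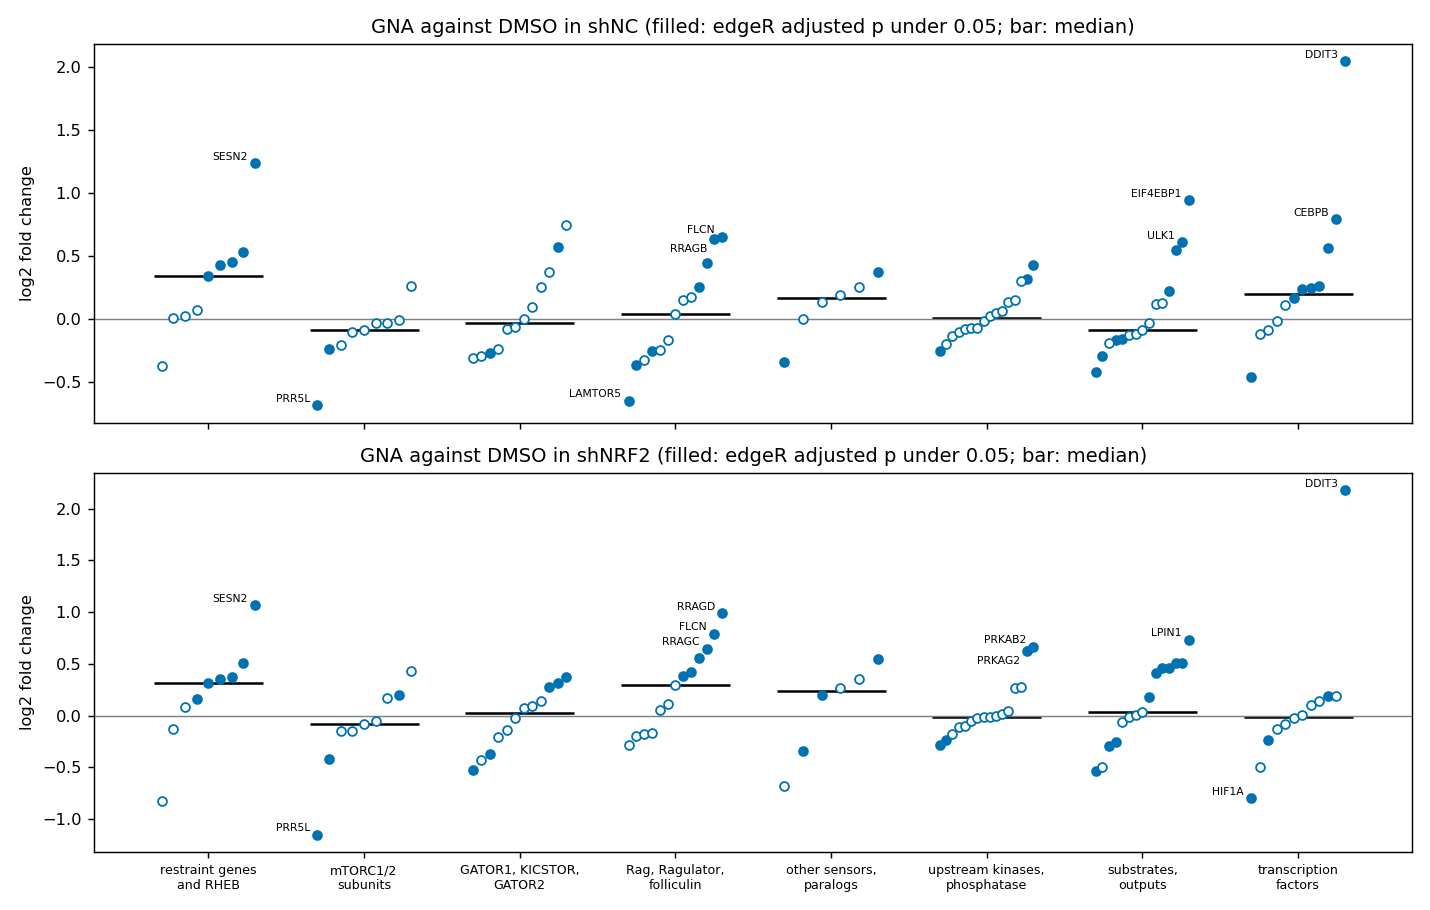
Log2 fold change with GNA in shNC (top) and shNRF2 (bottom) for the 9 tested genes (first column) and the 7 pathway lists, 1 point per gene, filled at an edgeR adjusted p under 0.05, with a bar at each list's median and names for called genes beyond 0.6 in size. The medians of the first column are 0.34 and 0.32, and the median over all 82 list genes was -0.0066 in shNC and 0.012 in shNRF2.

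GATOR2 and its neighbours are the complexes that sestrins and CASTOR1 act on. With GNA 1 of 12 genes of the GATOR1, KICSTOR and GATOR2 list rose and 1 fell in shNC, and 3 rose and 2 fell in shNRF2. The shares of all tested genes that rose and fell were 14.6% and 16.1% in shNC and 16.7% and 17% in shNRF2, for this list and the 3 that follow. Of 9 mTORC1 and mTORC2 subunit genes, 2 fell with GNA in shNC, and 1 rose and 2 fell in shNRF2. MTOR was higher in the hairpin line by 0.25 ± 0.069 in DMSO and 0.28 ± 0.069 in GNA, the former not called without shNRF2 DMSO replicate 1. The mTORC2 genes PRR5 and RICTOR were lower there, with log2 differences of -1.08 ± 0.19 and -0.29 ± 0.076 in DMSO and -0.91 ± 0.18 and -0.40 ± 0.076 in GNA. PRR5L, of the same list, was higher there in DMSO (0.63 ± 0.22, adjusted p = 0.030, edgeR), a call lost in 6 of 21 alternatives. Of the 9 subunit genes, 3 were higher and 3 lower in the hairpin line in DMSO, beside 16.8% and 18.3% of all tested genes. In GNA 2 were higher and 3 lower, beside 12.8% and 13.3%. The RICTOR difference in DMSO was not called with limma on FPKM. Of 6 other sensors and paralogs, 1 rose and 1 fell with GNA in shNC, and 2 rose and 1 fell in shNRF2. LARS1, the leucyl-tRNA synthetase, rose by 0.37 ± 0.047 and 0.20 ± 0.046 in shNC and shNRF2. CASTOR2, a paralog of CASTOR1, was lower with GNA, with changes of -0.35 ± 0.11 and -0.34 ± 0.11 (adjusted p = 0.015 and 0.020, edgeR). These CASTOR2 calls were lost in 5 and 8 of 21 alternatives. Of 16 upstream kinase and phosphatase genes 2 rose and 1 fell in shNC and 2 rose and 2 fell in shNRF2. The AMPK subunit gene PRKAB2 rose by 0.43 ± 0.074 and 0.66 ± 0.076, and PRKAG2 was lower in the hairpin line, with a log2 difference of -1.01 ± 0.084 in DMSO and -0.51 ± 0.079 in GNA.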

How the data were processed

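RNA of 12 libraries, 3 in each of 4 groups, was sequenced by the submitters. The authors deposited raw counts per gene and FPKM values for the same libraries. Per the submitters' processing notes the build was GRCh38 and DESeq2 was used, with no version or role stated. Which aligner, counter and strand setting were used is not given in the sources read. In 100% of 15653 genes the deposited FPKM equalled count over column total and a fixed gene length (relative tolerance 0.001), and so adds nothing to the counts. Single-cell data named in the design were not analysed here.

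Genes were filtered with filterByExpr (minimum count 10, minimum total 15) and counts were tested with edgeR 4.0.16 in R 4.3.3 (TMM, glmQLFit, glmQLFTest, 1 coefficient per group over all 12 libraries), after the script had been tested on simulated data. There, 52.6% of 97 1.5-fold and 78.8% of 99 2-fold changes with GNA in shNC were recovered, among 15321 genes tested. For the difference of the responses 45.5% and 69% were recovered. False calls were 8.5% of 141 calls and 7.3% of 123 calls in these comparisons. Far fewer genes changed there than were called in the deposited data (30.7% with GNA in shNC). The simulated rates therefore do not give the power of the tests reported here. SE is the log2 fold change divided by the square root of F. Alternatives were 2 other scalings (size factors of DESeq2, library totals), a minimum of 1 CPM in 3 libraries or none, DESeq2 1.42.0 itself, limma 3.58.1 on log2(FPKM + 1) and log2(FPKM + 0.1), a replicate block, fits to the compared groups alone, and fits that omit 1 library each. The 10 genes, the lists and the naming rule were chosen with earlier results of these data known. The rule was up to 3 called genes each way per list and comparison, and the 5 best correlated genes of SESN2, DDIT4 and SESN3. The pathway genes named are a part of those under the rule, except for ATF4. ATF4 was named outside the rule and was not refitted under the alternatives. Nor were the changes of ULK1, RRAGB and FOXO3 with GNA in shNRF2, since the rule did not name these genes in that comparison. Positions and exon overlaps are from GENCODE 29. Some genes are not reported here.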

Additional observations from a re-analysis of the deposited data

Results flagged for a closer look

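For the 9 tested genes, RHEB among them, no change of GNA response from shNC to shNRF2 was called by edgeR, DESeq2 or limma. Equal responses are not shown by this. The RHEB difference was 0.31 (95% interval 0.044 to 0.58, unadjusted p = 0.024, adjusted p = 0.17, edgeR). The intervals of SESN1 (-0.85 to 0.12) and DEPTOR (-1.43 to 0.52) were wide. Among the 82 pathway genes around these 9, edgeR called 10 in the same test (adjusted p under 0.05, against 6.82% of all tested genes). Differences are the log2 response in shNRF2 minus that in shNC.

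The response of EIF4EBP1 was weaker in shNRF2 (-0.43 ± 0.090, edgeR adjusted p = 0.0034). GRB10, an adaptor that mTORC1 phosphorylates, stood at 67.6 ± 5.10 and 62.0 ± 2.10 CPM in shNC DMSO and GNA and at 53.9 ± 1.42 and 76.9 ± 2.74 in shNRF2 (0.64 ± 0.089, edgeR adjusted p = 3.3e-05). NR3C1, the glucocorticoid receptor, stood at 95.5 ± 2.67 and 113 ± 5.57 CPM in shNC and at 111 ± 3.87 and 94.2 ± 0.303 in shNRF2 (-0.47 ± 0.076, edgeR adjusted p = 2.0e-04). HIF1A fell further in shNRF2 (-0.33 ± 0.065, edgeR adjusted p = 0.0018). These 4 calls held under all 20 alternatives run.

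For 3 further genes the call was lost only with limma on both FPKM scales: MAPKAP1, an mTORC2 subunit (0.41 ± 0.096, adjusted p up to 0.065), SEC13 of GATOR2 (0.36 ± 0.088, up to 0.075) and PRKAG2 (0.49 ± 0.12, up to 0.18). The other 3 were lost more often: RRAGC (0.48 ± 0.13, lost in 8 of 20 alternatives, adjusted p up to 0.078), CEBPB (-0.79 ± 0.22, lost in 8, up to 0.18) and NFE2L2 itself (-0.30 ± 0.090, lost in 13, up to 0.14).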

How the results depend on the processing

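Of 935 refitted log2 fold changes of the 9 tested genes, 890 kept direction and side of the threshold, 22 lost a call, 4 gained one and 19 changed sign. All calls of SESN2, SESN3, DDIT4, TSC1 and AKT1S1 were kept in the alternatives run. The changes of sign were of values near 0 with no call. The AKT1S1 difference of responses became -0.023 with library totals and -0.029 and -0.026 with limma on log2(FPKM + 1) and log2(FPKM + 0.1), and ran from -0.048 to 0.13 when single libraries were left out. Such fits gave -0.056 to 0.14 for RHEB and -0.044 to 0.066 for SESN3 with GNA in shNC, -0.054 to 0.0098 for the DDIT4 difference, -0.013 to 0.25 for SESN1 with GNA in shNRF2 and -0.34 to 0.050 for DEPTOR between lines in GNA. The number lower with GNA in shNRF2 became 1 with limma on either FPKM scale, and 0 to 1 without single libraries. With limma on log2(FPKM + 0.1), 2 were lower in shNRF2 in GNA in place of 4. Calls over all genes for the difference were 657 and 603 with limma, against 1068, and 700 to 1437 without single libraries, 700 without shNC GNA replicate 2. The causes were not tested. The replicate block changed no call of the 9 genes and gave 915 calls for the difference; same-numbered libraries did not pair, since 0 of 18 pairs correlated over 0.1 and 2 of 12 libraries correlated best with their own number. List counts moved by over 1.5 times in 155 of 1456 fits, and 232 of 2403 values of named pathway genes lost their call. Depth limits CASTOR1 and DEPTOR, with at most 12 and 34 counts.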
